A study of Homo sapiens with 4 samples.

Results

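The genes examined here encode splicing factors and heterogeneous nuclear ribonucleoproteins (hnRNPs), 73 of the 22465 genes measured. They were chosen by symbol, with earlier results of these data known. The choice took every gene whose transcript cluster carried exactly 1 gene symbol and whose symbol began with HNRNP, SF3A, SF3B, PRPF, SNRP or U2AF, or with SRSF or LSM and a digit. Of the 83 genes that matched, 9 pseudogenes and 1 gene with an antisense symbol were left out. SNRPN, which the choice also excludes, was not among the 83. A further 11 clusters that list several symbols, some of them in these families, stay unnamed and were not used. Expression was measured on Affymetrix arrays in A549 cells, an established line of human lung carcinoma epithelium, that carried a lentiviral pLKO.1 vector. The shINSL4 cells expressed a short hairpin RNA against INSL4, a placental peptide of the insulin and relaxin family, and the shCtl cells carried the control, called a scrambled hairpin in the series design and a vector control in the labels. Each group had 2 arrays from separately set up cultures, and the titles name a single INSL4 hairpin; no source says whether the cultures of a group share a transduction, so p-values here reflect the spread among cultures, which may be technical.

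Splicing removes introns from pre-mRNA. The U1 and U2 small nuclear ribonucleoproteins (snRNPs) mark the ends of an intron, with U2AF and the SF3A and SF3B complexes fixing U2 at the branch point. The tri-snRNP of U4, U6 and U5, which holds several but not all PRPF proteins, then joins and forms the catalytic core. Sm proteins (SNRP genes) and LSM proteins form rings around the small RNAs, and a cytoplasmic LSM ring takes part in mRNA decay. SR proteins (SRSF genes) and hnRNPs bind the pre-mRNA itself and tilt the choice of exons, often against each other. HNRNPM is known for opposing the epithelial splicing factor ESRP1 on CD44 exons.

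Values are log2 RMA levels as deposited, and differences are shINSL4 minus shCtl on that scale. The median level of the genes tested lay between 6.97 and 6.98 on the shINSL4 arrays and between 6.91 and 6.94 on the shCtl arrays, and the median difference of all genes was 0.08. INSL4 read 7.26 and 7.22 in shINSL4, against 9.03 and 8.92 in shCtl, a difference of -1.73 (SE 0.0684, adjusted p = 0.000142, limma with Benjamini-Hochberg adjustment over all genes). The group means of 10 epithelial markers of the line ran from 6.57 to 13.06 in shINSL4 and from 6.73 to 13.12 in shCtl. Of these markers 5 were lower in shINSL4 (KRT7, KRT8, KRT18, EPCAM and CDH1), a share of 50%, and 0 higher. Over all genes 9.42% were lower and 6.41% higher. The 12 measured markers of fibroblasts, leukocytes and endothelium ran from 3.87 to 7.60 in shINSL4 and from 3.75 to 7.48 in shCtl, of which DCN was higher and LUM lower; the table holds no background level against which to call them absent. The part of these markers in the results below was not tested, and in bulk RNA fewer cells with a transcript and less of it per cell cannot be told apart.

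Most of the splicing genes showed no called difference, and a few single subunits stood far from the rest. HNRNPM fell 2.41-fold and PRPF8, the large core protein of the U5 snRNP, fell 1.62-fold in shINSL4, while SF3B3, a large subunit of SF3B, rose 1.81-fold. PRPF3, U2AF2 and LSM4 fell and SNRPE rose by smaller amounts. In all, 5 of 73 genes were lower (6.85%) and 2 higher (2.74%), judged by limma's Benjamini-Hochberg adjusted p at 0.05, while 9.42% of all genes tested were lower and 6.41% higher. How the members' shares stood to those of all genes depended on the setting: with an intensity trend in limma's prior variance, 13.7% of members were lower and 8.22% higher, beside 10.9% and 8.83% of all genes. Changes of at least 1.5-fold were called for 2 lower and 1 higher member, beside 2.99% and 0.494% of all genes. Without shINSL4 replicate 1 the counts were 3 lower and 1 higher, beside 6.25% and 3.97% of all genes, and without shINSL4 replicate 2 they were 4 and 1, beside 7.2% and 3.6%. Scaling moved the split: 5.48% of members were lower and 8.22% higher after quantile normalization (9.56% and 6.82% of all genes), and 9.59% were lower and 1.37% higher with each array centred on its median (10.4% and 3.6% of all genes). Same-numbered arrays also share a letter in their sample codes, and with the replicate number as a block 6 members were lower and 6 higher (8.22% each), beside 11.6% and 13.3% of all genes.

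**Figure D1:**
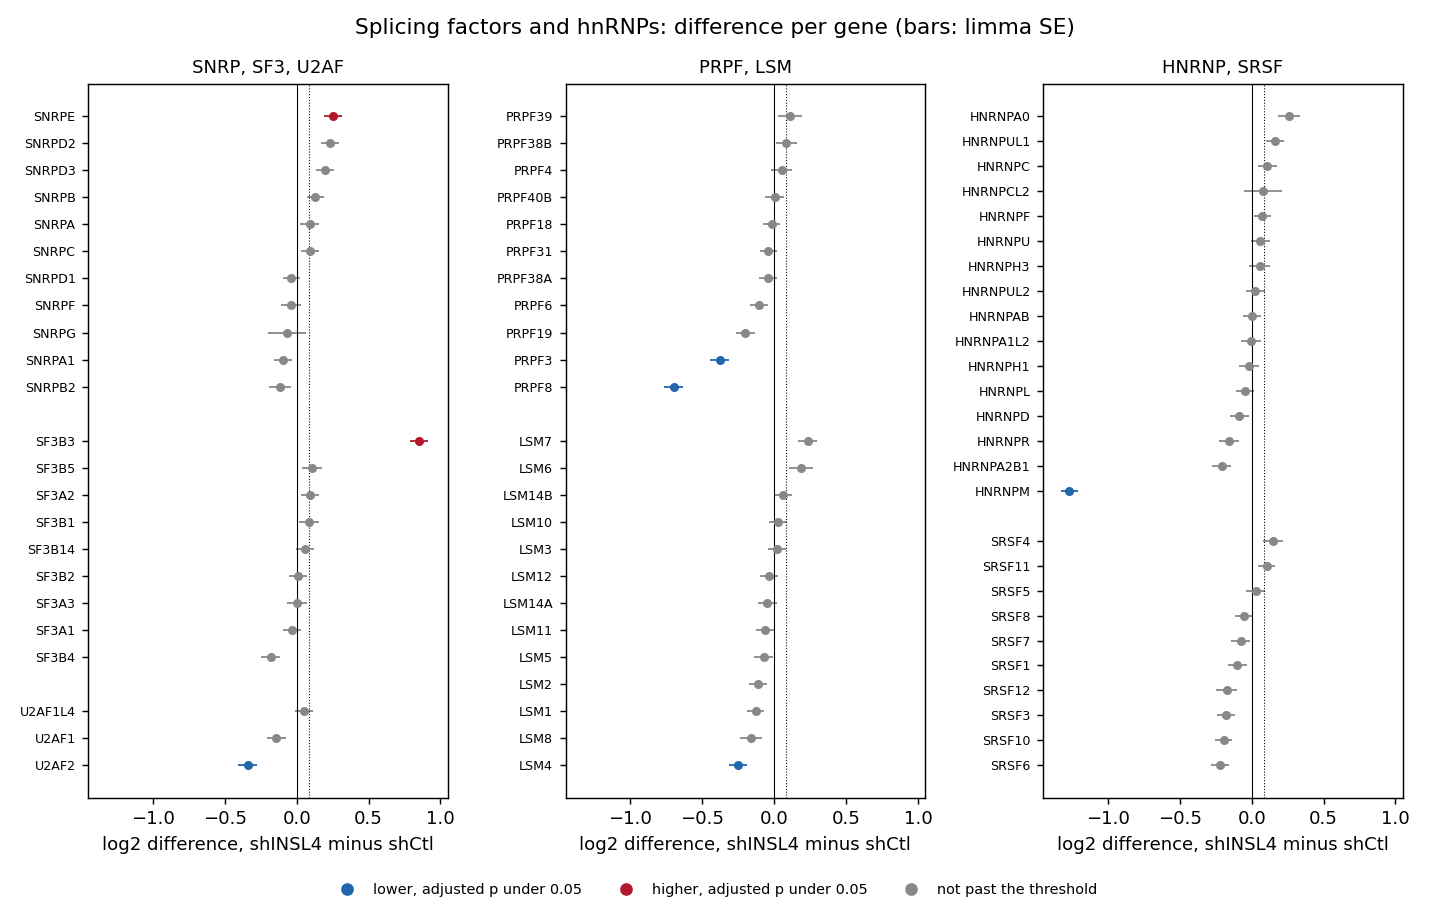
Difference in log2 level, shINSL4 minus shCtl, for each of the 73 genes by family; bars are limma standard errors, the solid line is 0 and the dotted line the median of all genes tested (0.08). HNRNPM at -1.27, PRPF8 at -0.70 and SF3B3 at 0.85 lie well outside the range of the members that did not pass the threshold, -0.22 to 0.26.

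The promoter sequences of the members that fell are printed because these genes moved the same way in shINSL4. They come from RefSeq (GRCh38.p14), run 5′ to 3′, span 300 bases mostly upstream of the annotated gene start, and PRPF3 has no entry. Capitals mark matches, on either strand, to the ETS site core CGGAAG, the YY1 site core ATGGCGG, the E-box CACGTG, the CCAAT box itself, the GC box GGGCGG and the TATA box TATAAA; GC box matches overlap one another in U2AF2 and LSM4.
HNRNPM, chr19:8444725-8445024, plus strand: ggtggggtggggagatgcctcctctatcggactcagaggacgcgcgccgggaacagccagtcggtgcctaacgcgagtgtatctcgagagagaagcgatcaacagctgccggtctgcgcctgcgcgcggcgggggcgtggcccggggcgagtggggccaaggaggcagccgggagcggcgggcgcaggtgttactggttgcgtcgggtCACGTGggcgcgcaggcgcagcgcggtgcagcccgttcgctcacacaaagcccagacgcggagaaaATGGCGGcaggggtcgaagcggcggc
PRPF8, chr17:1684818-1685117, minus strand: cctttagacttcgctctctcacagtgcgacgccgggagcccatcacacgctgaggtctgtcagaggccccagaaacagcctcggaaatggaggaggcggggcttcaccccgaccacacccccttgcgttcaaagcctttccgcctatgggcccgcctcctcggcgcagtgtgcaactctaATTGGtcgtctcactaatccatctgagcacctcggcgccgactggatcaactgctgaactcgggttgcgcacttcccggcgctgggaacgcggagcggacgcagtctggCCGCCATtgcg
U2AF2, chr19:55654785-55655084, plus strand: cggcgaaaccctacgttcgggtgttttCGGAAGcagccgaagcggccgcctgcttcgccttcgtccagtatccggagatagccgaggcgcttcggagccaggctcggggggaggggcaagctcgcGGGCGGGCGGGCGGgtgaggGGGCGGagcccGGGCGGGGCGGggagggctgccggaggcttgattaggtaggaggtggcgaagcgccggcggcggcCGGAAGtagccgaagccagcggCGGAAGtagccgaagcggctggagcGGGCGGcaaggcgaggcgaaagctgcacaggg
LSM4, chr19:18323027-18323326, minus strand: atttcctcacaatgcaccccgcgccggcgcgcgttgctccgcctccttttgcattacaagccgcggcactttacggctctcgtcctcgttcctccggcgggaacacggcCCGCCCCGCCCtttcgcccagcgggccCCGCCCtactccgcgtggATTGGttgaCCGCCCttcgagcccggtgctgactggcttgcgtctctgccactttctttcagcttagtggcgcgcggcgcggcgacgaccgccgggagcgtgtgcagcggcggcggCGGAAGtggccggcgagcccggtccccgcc
No single motif occurred in all 4. HNRNPM and PRPF8 each hold 1 ATGGCGG, which lies within the last bases of both windows, and HNRNPM also holds 1 CACGTG. In HNRNPM these letters begin with ATG and may be the start of the coding sequence rather than promoter, which was not tested. U2AF2 holds 3 matches to CGGAAG and LSM4 holds 1, while PRPF8 and LSM4 each hold 1 CCAAT. GC boxes numbered 7 in U2AF2 and 4 in LSM4, and TATAAA was found in none of these 4 windows.

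Promoter entries were matched for 66 of the 73 genes, among them SNRPE, whose window appears to hold coding sequence and is counted in the shares but not printed. CGGAAG occurred in 54.5% of them, in 25.6% of the 15843 promoters of protein-coding genes and in 19.9% of all 27305 promoters. ATGGCGG occurred in 16.7%, 7.63% and 5.72% of these sets, CCAAT in 43.9%, 36.4% and 35.7%, and GGGCGG in 60.6%, 58.5% and 44.6%. CACGTG occurred in 7.58%, 8.88% and 7.43%, and TATAAA in 9.09%, 9.63% and 12.0%. The median GC content was 61.7% in the members' promoters, 62.7% for protein-coding genes and 58.3% over all promoters, and the ratio of observed to expected CpG was 0.977, 0.763 and 0.580. A match is only a description of these letters, and the array data do not show whether any factor binds there.

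Among the proteins that recognise the branch point and the end of the intron, SF3B3 was the single call among 6 SF3B genes. It read 10.90 and 10.93 in shINSL4, against 10.02 and 10.10 in shCtl. The groups do not overlap, and the difference was 0.85 (SE 0.0642, adjusted p = 0.000506, limma with Benjamini-Hochberg adjustment). The other 5 measured SF3B genes did not pass, with differences from -0.18 to 0.11 and 95% intervals that reach from -0.34 to 0.28. The lowest of them was SF3B4, which contacts the pre-mRNA near the branch point, at -0.18 (adjusted p = 0.115). SF3B14, the branch-point protein now named SF3B6, was among those not called. The 3 SF3A genes lay between -0.03 and 0.09, and none passed the threshold. PHF5A, a small SF3B subunit under another symbol and so not a member, went the other way from SF3B3: it read 6.08 and 6.14 in shINSL4, against 6.90 and 7.04 in shCtl, a difference of -0.86 (SE 0.0723, adjusted p = 0.000740). Of the 7 SF3B subunits counted with it, 1 rose and 1 fell.

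U2AF2 binds the pyrimidine tract that precedes the end of the intron. It read 10.43 and 10.48 in shINSL4, against 10.85 and 10.74 in shCtl. The shINSL4 arrays lay below the shCtl arrays without overlap, with a difference of -0.34 (SE 0.0677, adjusted p = 0.0186, limma with Benjamini-Hochberg adjustment), and the call was lost without shINSL4 replicate 1 (-0.32, adjusted p = 0.112). Its partner U2AF1, which reads the last bases of the intron, differed by -0.14 (SE 0.0655, adjusted p = 0.174) and was not called.

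The PRPF family held 2 of the 5 decreases, both in the tri-snRNP. PRPF8 read 10.29 and 10.36 in shINSL4, against 11.04 and 11.01 in shCtl. The groups are far apart relative to their spread, with a difference of -0.70 (SE 0.0633, adjusted p = 0.000953, limma with Benjamini-Hochberg adjustment). PRPF3, which binds the paired U4 and U6 RNAs, read 7.72 and 7.73 in shINSL4, against 8.04 and 8.15 in shCtl. It fell by 0.38 (SE 0.0671, adjusted p = 0.0125). The other 9 PRPF genes did not pass and ran from -0.20 to 0.11. Their lowest was PRPF19, the ubiquitin ligase of the complex named after it, at -0.20 (adjusted p = 0.0857), and PRPF6, which bridges U5 and the U4/U6 particle, differed by -0.11 (adjusted p = 0.257).

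Of the 11 SNRP genes, 1 passed the test. SNRPE, a subunit of the Sm ring, read 8.15 and 8.18 in shINSL4, against 7.90 and 7.92 in shCtl. Its difference of 0.25 (SE 0.0607, adjusted p = 0.0350, limma with Benjamini-Hochberg adjustment) was that single call. The call was lost with each array centred on its median (adjusted p = 0.0758), without shINSL4 replicate 1 (0.214), without shINSL4 replicate 2 (0.277) and without shCtl replicate 2 (0.0609). SNRPEP4, a pseudogene copy of SNRPE, read 9.66 and 9.68 in shINSL4, against 9.45 and 9.39 in shCtl, also a difference of 0.25 (adjusted p = 0.0396), and the signals of near-identical copies may not be separable on the array. SNRPD2 at 0.23 (adjusted p = 0.0538) and SNRPD3 at 0.20 (adjusted p = 0.0758), also of the Sm ring, did not pass. Both were called with the replicate block (adjusted p = 0.0366 and 0.0481). SNRPF at -0.04 and SNRPG at -0.07 were not called. For 6 of the 11 SNRP genes (54.5%) the shINSL4 arrays lay wholly above the shCtl arrays and for 3 (27.3%) wholly below, beside 48% and 20.8% of all genes. Among genes above the lowest 40% by level, these shares were 46% and 29.1%. The whole ring of 7 ran from -0.07 to 0.25 with a median of 0.13, and the 4 SNRP genes of the U1 and U2 particles ran from -0.12 to 0.09.

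Among the 13 LSM genes, 1 was called. LSM4 is shared by the nuclear ring around U6 and the cytoplasmic decay ring. It read 9.08 and 9.06 in shINSL4, against 9.32 and 9.32 in shCtl. It fell by 0.25 (SE 0.0603, adjusted p = 0.0351, limma with Benjamini-Hochberg adjustment), and the call was lost after quantile normalization (adjusted p = 0.0840), without shINSL4 replicate 1 (0.231), without shINSL4 replicate 2 (0.275) and without shCtl replicate 2 (0.0663). Other subunits of these rings differed in sign, none of them called: LSM7 differed by 0.23 (adjusted p = 0.0631, or 0.0428 and so called with the replicate block), LSM8, which defines the nuclear ring, by -0.16 (adjusted p = 0.170), and LSM1, which defines the cytoplasmic one, by -0.13 (adjusted p = 0.176). The 5 LSM genes numbered 10 and above, several of which act in histone mRNA processing or mRNA storage and decay, stayed between -0.07 and 0.06, and none passed.

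HNRNPM gave the largest difference of all 73 genes. It read 9.40 and 9.41 in shINSL4, against 10.68 and 10.67 in shCtl. The arrays of a group nearly coincide and the groups lie more than a log2 unit apart, with a difference of -1.27 (SE 0.0599, adjusted p = 0.000154, limma with Benjamini-Hochberg adjustment). It was the single call among 16 HNRNP genes. The other 15 ran from -0.21 to 0.26. At the ends of that range, HNRNPA2B1, a nuclear RNA-binding protein that also sorts RNAs for transport, differed by -0.21 (adjusted p = 0.0830), and HNRNPA0 by 0.26 (adjusted p = 0.0674). HNRNPA0 was called with the replicate block (adjusted p = 0.0315). HNRNPC, which packages nascent transcripts and binds uridine tracts, differed by 0.11 (adjusted p = 0.249). HNRNPA1L2 and HNRNPCL2 are close copies of other family genes, and their signals may not be separable from those genes. ESRP1, the factor named above that HNRNPM opposes, had group means of 3.87 in shINSL4 and 3.81 in shCtl and was not called. These means lie at the low end of the markers of other cell types, whose lowest group mean was 3.75.

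**Figure D2:**
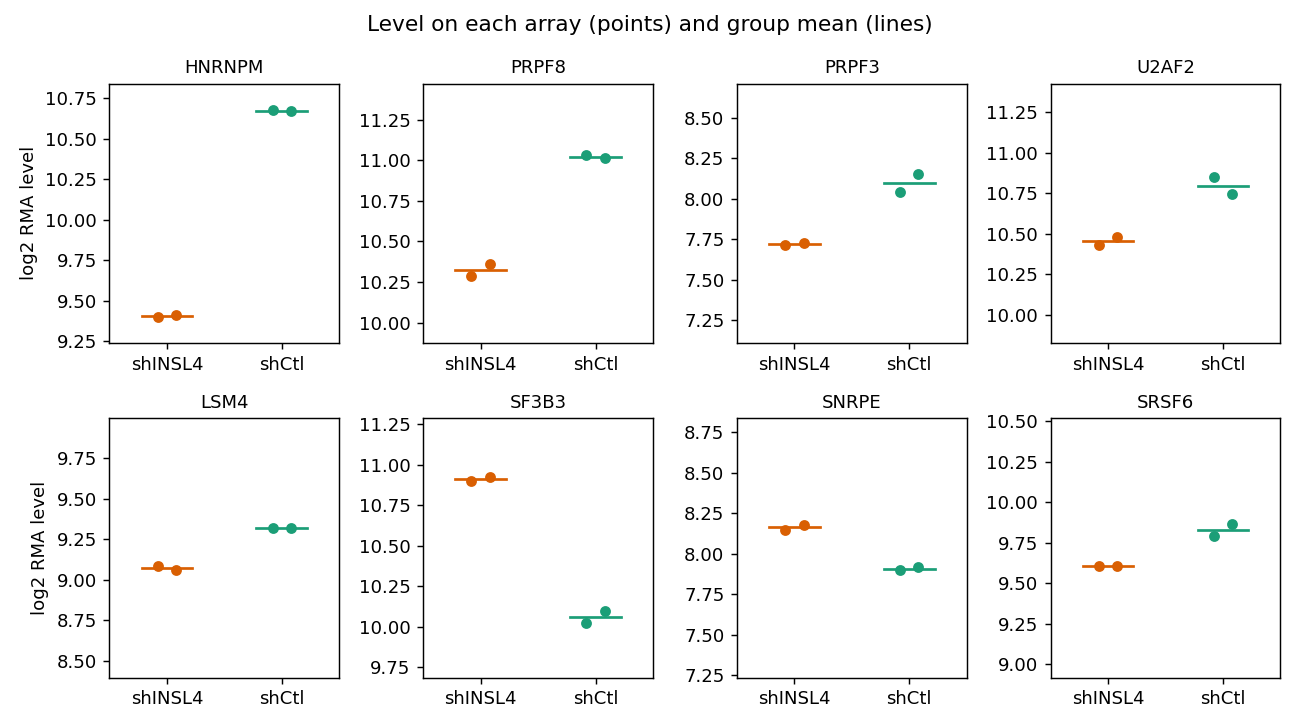
log2 RMA level on each array for the 7 called genes and SRSF6, with shINSL4 left of shCtl; points are arrays, lines are group means, and every panel spans the same range on the log2 scale. HNRNPM, PRPF8 and SF3B3 are separated by 0.70 or more, the others by 0.38 or less.

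No SR protein gene passed the threshold among the 10 measured, although 4 had an unadjusted limma p under 0.05, all lower. At that unadjusted p, 3045 of all 22465 genes tested were lower and 4663 higher, 34.3% in either direction. SRSF6 had the smallest p. It read 9.61 and 9.61 in shINSL4, against 9.79 and 9.86 in shCtl, a difference of -0.22 (SE 0.0630, adjusted p = 0.0594, limma with Benjamini-Hochberg adjustment) with a 95% interval from -0.37 to -0.07. It was called with the replicate number as a block, with an intensity trend, after median centring or cyclic loess, without the dimmest genes and without shCtl replicate 1. SRSF10 differed by -0.20 (adjusted p = 0.0748), SRSF3 by -0.18 (adjusted p = 0.0998) and SRSF12 by -0.17 (adjusted p = 0.136). SRSF1, the best studied of the family, differed by -0.10 (adjusted p = 0.293), and SRSF4 was the highest at 0.15 (adjusted p = 0.169). The shINSL4 arrays lay wholly below the shCtl arrays for 7 of the 10 genes (70.0%) and wholly above for 2 (20.0%), beside 20.8% and 48% of all genes. Among genes above the lowest 40% by level, these shares were 29.1% and 46%. The whole family ran from -0.22 to 0.15 with a median of -0.09, beside 0.08 over all genes tested.

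Shifts that did not reach the threshold went in both directions. Over the 73 genes the median difference was -0.02. At an unadjusted limma p under 0.05 there were 12 lower and 7 higher members, beside 34.3% of all genes in either direction. The 2 groups did not overlap, with shINSL4 the lower one, for 30 members (41.1%), and with shINSL4 the higher one for 22 (30.1%). Over all genes tested these shares were 20.8% and 48%, and over the genes above the lowest 40% by level, where 68 of the members lie, they were 29.1% and 46%. The median difference moved to 0.02 after quantile normalization and to -0.07 after median centring, so its sign depends on the scaling. For 24 members, with differences from -0.07 to 0.08, the sign changed under at least 1 of the alternative settings. They include 4 of the 30 and 2 of the 22 non-overlapping members just counted, and 3 ends of the ranges given above: SNRPG for the Sm ring, LSM14B for the LSM genes numbered 10 and above and SF3A1 for SF3A.

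**Figure D3:**
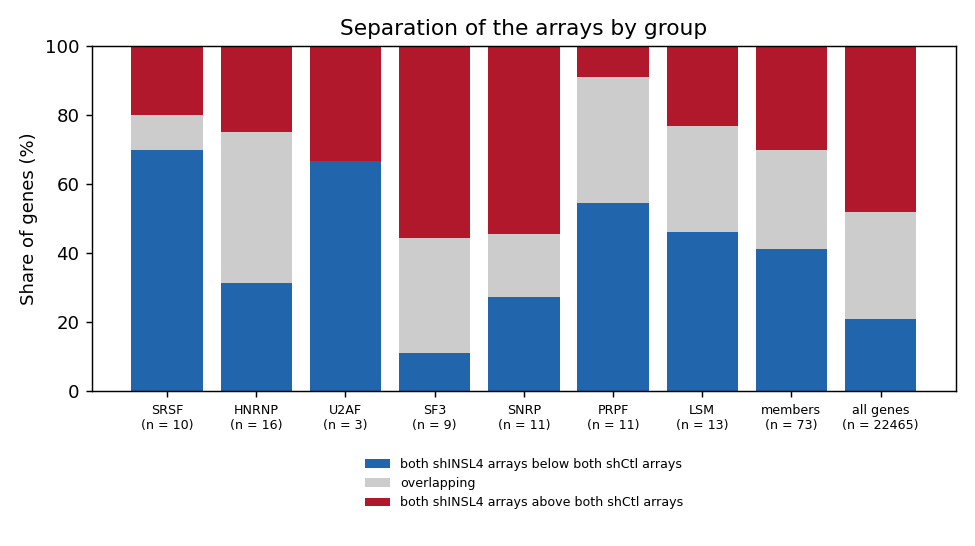
Share of genes in each family for which the shINSL4 arrays lay entirely below, overlapped or lay entirely above the shCtl arrays. The first share was 70.0% in SRSF and 54.5% in PRPF but 11.1% in SF3, beside 41.1% over all members and 20.8% over all genes. Among genes above the lowest 40% by level, which are not drawn, it was 29.1%.

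Of 106 other genes of the pathway measured, listed from textbook knowledge, 22 were lower (20.8%) and 10 higher (9.43%), beside 9.42% and 6.41% of all genes. Among genes above the lowest 40% by level, 14.4% were lower and 7.46% higher in the same fit. Of 38 other spliceosome subunits measured, 12 were lower (31.6%) and 1 higher, with a median of -0.04. Besides PHF5A, the U5 proteins EFTUD2, a GTPase, and SNRNP200, the helicase that unwinds U4 from U6, fell with PRPF8. EFTUD2 read 9.38 and 9.49 in shINSL4, against 10.07 and 10.11 in shCtl, a difference of -0.66 (SE 0.0683, adjusted p = 0.00160, limma with Benjamini-Hochberg adjustment). SNRNP200 read 9.16 and 9.23 in shINSL4, against 9.79 and 9.82 in shCtl, a difference of -0.61 (SE 0.0631, adjusted p = 0.00164). Neither pair of groups overlaps. A grouping of 7 U5 proteins, made after their values were seen and so without a test, held 5 lower, 1 higher and 1 uncalled gene. The others in it were the helicase DDX23 at -0.43 and TXNL4A at -0.29, both lower, SNRNP40, which was higher at 0.25, and PRPF6. The TXNL4A call was lost without any 1 of the 4 arrays (adjusted p from 0.0529 to 0.271), as was that of SNRNP40 (0.0505 to 0.293), which was also lost after quantile normalization (0.0522), centring (0.0769) and cyclic loess (0.0917); that of TXNL4A was lost after quantile normalization (0.0595). Also picked after their values were seen, the tri-snRNP protein USP39 fell by 0.58 and the branch-point helicase DDX46 by 0.64.

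**Figure D4:**
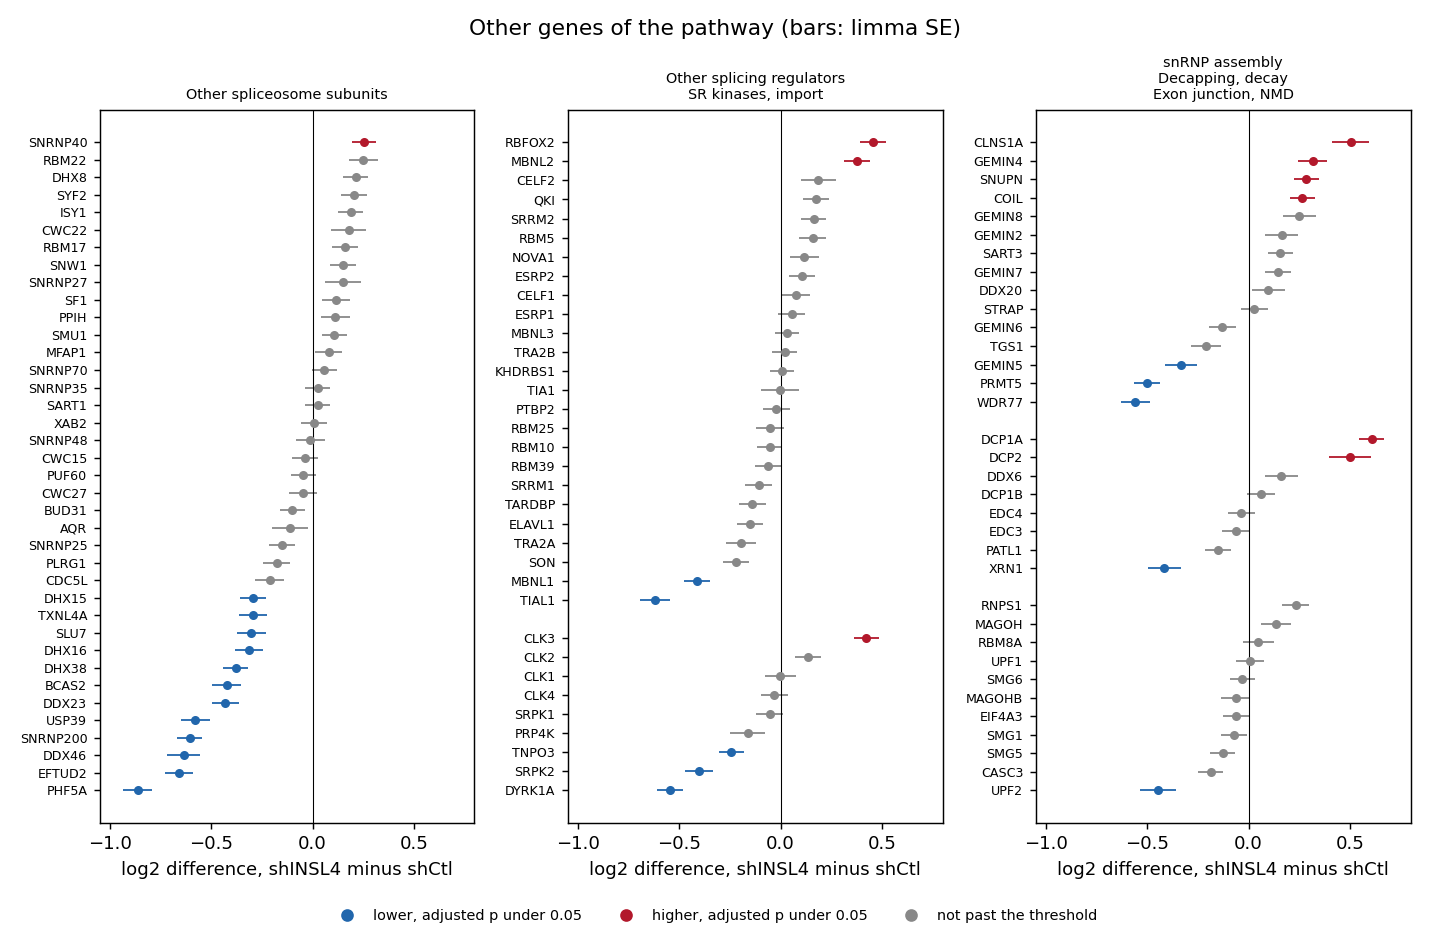
Difference in log2 level, shINSL4 minus shCtl, for the 106 other pathway genes measured; bars are limma standard errors. PHF5A at -0.86 and EFTUD2 at -0.66 are lowest among the spliceosome subunits, and DCP1A at 0.61 is highest of all.

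Among 25 other regulators of alternative splicing, 2 were lower and 2 higher, shares of 8% each, beside 9.42% and 6.41% of all genes. TIAL1, which binds uridine-rich tracts, fell by 0.62 (SE 0.0717, adjusted p = 0.00242, limma with Benjamini-Hochberg adjustment). RBFOX2 rose by 0.45 (adjusted p = 0.00526) and MBNL1 fell by 0.41 (adjusted p = 0.00759). The related MBNL2, picked after its values were seen, went the other way from MBNL1 and rose by 0.38 (adjusted p = 0.0109). The kinases and the import receptor of SR proteins held 3 lower (33.3%) and 1 higher (11.1%) of 9, beside 9.42% and 6.41% of all genes. DYRK1A fell by 0.55 (adjusted p = 0.00240) and SRPK2, a cytoplasmic SR protein kinase, by 0.40 (adjusted p = 0.0112), while the nuclear kinase CLK3 rose by 0.42 (adjusted p = 0.00595).

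The factors that load Sm rings onto snRNAs moved in both directions, with 3 lower (20%) and 4 higher (26.7%) of 15. Over all genes these shares were 9.42% and 6.41%. The methyltransferase PRMT5, which modifies Sm proteins, read 8.78 and 8.85 in shINSL4, against 9.31 and 9.32 in shCtl, and fell by 0.50 (adjusted p = 0.00350, limma with Benjamini-Hochberg adjustment). Its partner WDR77 fell by 0.56 (adjusted p = 0.00383). CLNS1A, the chaperone that brings Sm proteins to that enzyme, read 7.93 and 8.06 in shINSL4, against 7.38 and 7.59 in shCtl, and rose by 0.50 (adjusted p = 0.0134).

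Among 8 decapping and decay partners of the cytoplasmic LSM ring, 2 were higher (25%) and 1 lower (12.5%), beside 6.41% and 9.42% of all genes. The decapping activator DCP1A rose by 0.61 (SE 0.0637, adjusted p = 0.00168, limma with Benjamini-Hochberg adjustment) and the decapping enzyme DCP2 by 0.50 (adjusted p = 0.0226), although the DCP2 call was lost after median centring (adjusted p = 0.0544) and cyclic loess (0.0845). The exonuclease XRN1, which degrades decapped mRNA, fell by 0.42 (adjusted p = 0.0168). Of 11 exon junction and nonsense-mediated decay genes, 1 was lower (9.09%) and 0 higher, beside 9.42% and 6.41% of all genes. The lower one was UPF2, which fell by 0.45 (adjusted p = 0.0186).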

How the data were processed

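The authors deposited log2 levels from RMA, run in Affymetrix Expression Console according to the submitters' processing notes; no source used here gives versions, annotation release or genome build. RMA corrects background, equalises the arrays and summarises probes per transcript cluster, so a level pools the exons of a gene and shows no splice forms. Of 67528 clusters, 23781 have 1 symbol in the platform annotation, and keeping the highest-mean cluster per gene left 22465 genes; 4 members have several clusters. All genes were fitted with limma 3.58.1 in R 4.3.3 (group term, empirical Bayes, two-sided tests), with Benjamini-Hochberg adjustment over all of them and a threshold of 0.05. Arrays have no read depth: precision is set by their number (median SE 0.0693, with 2 residual and 4.68 prior degrees of freedom). All 73 members matched the RefSeq gene table (GRCh38.p14) by identifier, symbol or older symbol.

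The members, the 6 pathway lists (116 symbols, 106 measured) and the tests were chosen with earlier results of these data known. Any member may be named; values per array are given for called members and for the gene with the smallest p in a family without calls. Up to 3 called genes with the smallest p are named per pathway list, and the text marks those picked later. Alternatives were a block for the replicate number, an intensity trend (plain or robust), a filter that removed the lowest 40% of genes by level, quantile, median and cyclic loess scaling, averaging a gene's clusters, other thresholds and omission of each array.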

Additional observations from a re-analysis of the deposited data

How the results depend on the processing

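HNRNPM, PRPF8, SF3B3 and INSL4 kept their direction and their call under all 14 alternatives, with differences from -1.32 to -1.18, -0.75 to -0.64, 0.80 to 0.92 and -1.79 to -1.68. PRPF3 lost its call only when a change of 1.5-fold was also asked for; U2AF2, LSM4 and SNRPE lost theirs there too, besides the settings given above. The number of members lower, 5 as reported, was 10 with an intensity trend, plain or robust (13.7%, beside 10.9% and 11% of all genes), 10 of 68 without the lowest 40% of genes (14.7%, beside 18.4%), 10 at an adjusted p under 0.1 (13.7%, beside 11.8%) and 2 with the added 1.5-fold (2.74%, beside 2.99%); leaving out single arrays gave 3 to 6, and 6.25% to 10.8% of all genes. The number higher, 2 as reported, was 6 (8.22%) with the replicate block, either trend, quantile normalization or an adjusted p under 0.1, beside 13.3%, 8.83%, 9%, 6.82% and 13.2% of all genes in that order, and 6 of 68 without the lowest 40% of genes (8.82%, beside 16.5%). It was 1 (1.37%) after median centring, beside 3.6%, and 1 with the added 1.5-fold, beside 0.494%; leaving out single arrays gave 1 to 3, and 3.6% to 13.3% of all genes. The cause was not tested. The members' median, -0.0181, was 0.0232 after quantile normalization, -0.0661 after centring and -0.0380 after cyclic loess, and -0.0271 to -0.000352 with single arrays left out. Same-numbered arrays share a number and a letter in the sample titles, whose meaning no label states; the correlation of their deviations was 0.232 over genes. The replicate block added 5 member calls (HNRNPA0, LSM7, SNRPD2, SNRPD3 and SRSF6) and lost 0. Leaving out an array leaves 1 in its group, assumed to vary like the other group. With 2 arrays per group, small differences cannot be told from culture spread.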

Other observations

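The 9 pseudogenes left out of the families differed by -0.23 to 0.25, and 1 of them, SNRPEP4, passed the threshold. HNRNPU-AS1 was left out as antisense by its symbol, although the gene record it matched is typed protein-coding. It read 6.43 and 6.43 in shINSL4, against 5.90 and 6.05 in shCtl, a difference of 0.45 (SE 0.0729, adjusted p = 0.00851, limma with Benjamini-Hochberg adjustment). For HNRNPU, its sense gene by name, the groups overlapped.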
